A study of Homo sapiens with 4 samples.

Results

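The zinc finger gene clusters of chromosome 19 were described through the peaks of CTCF and of acetylated lysine 27 of histone H3 (H3K27ac) in DU145 cells. Members were all peaks whose midpoint lay in one of 2 intervals of hg19. The first, chr19:20000000-24500000, is called the 19p12 interval here, and the second, chr19:52500000-59100000, the 19q13.4 interval. They held 406 of the 4795 peaks on chromosome 19 and of 86516 peaks in both lists: 20 CTCF and 25 H3K27ac peaks in 19p12, and 111 CTCF and 250 H3K27ac peaks in 19q13.4. The rest of chromosome 19 held 1432 CTCF and 2957 H3K27ac peaks. DU145 is an established prostate cancer line from a brain metastasis. Its chromatin was fixed with formaldehyde, sheared and pulled down with an antibody to CTCF or to H3K27ac, and input libraries of DU145 and LNCaP, a prostate cancer line from a lymph node metastasis, belong to the series but were not analysed here. No genotype change or treatment is given in the labels, and each antibody has 1 library. Peaks of 1 library are not replicates, so no test between the intervals and the rest was made. All 95% intervals cover counting error only.

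Zinc finger genes of this kind code for proteins with tandem C2H2 fingers, most with a KRAB domain that recruits the corepressor TRIM28, and many of them bind and silence transposable elements. They arose by repeated tandem duplication, are packed in clusters on chromosome 19, and are known for broad histone H3 lysine 9 trimethylation over their finger exons. CTCF, itself a zinc finger protein, binds insulators and anchors of chromatin loops. H3K27ac marks active promoters and enhancers.

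The intervals are not made of zinc finger genes alone, and the rest of the chromosome is not free of them. Among 1451 protein-coding genes of chromosome 19 in RefSeq (GRCh38.p14, used for names and order only), 270 (18.6%) have a symbol of the zinc finger families searched (ZNF, ZSCAN, ZIM, ZIK, ZFP, ZBTB, MZF and PEG3). The longest unbroken run of such genes has 27 members, from ZNF737 to ZNF681, and includes ZNF43, ZNF208, ZNF91 and ZNF675. It belongs to 19p12. A run of 23, from ZNF772 to ZNF256, belongs to the end of 19q13.4. Runs of 24 genes from ZNF627 to ZNF791 and from ZNF565 to ZNF793, and of 20 from ZNF283 to ZNF180, belong to other bands and count here with the rest. Only these longest runs are described. Shorter ones, among them 10 genes from ZNF766 to ZNF83 and 8 from ZNF606 to ZNF8, were not placed against the bounds of the intervals. The 19q13.4 interval also spans the leukocyte receptor genes (LILR and KIR). No hg19 annotation was used, so no peak was assigned to a gene.

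The upstream sequences of many 19p12 genes resemble each other. The 250 bases before the start of the first and the last gene of the 2 runs are printed from RefSeq (GRCh38.p14), 5′ to 3′ on the gene's strand (minus for all 4), with CG dinucleotides in capitals. They are shown to make the likeness within 19p12, and its absence between the ends of the other run, visible.
ZNF737: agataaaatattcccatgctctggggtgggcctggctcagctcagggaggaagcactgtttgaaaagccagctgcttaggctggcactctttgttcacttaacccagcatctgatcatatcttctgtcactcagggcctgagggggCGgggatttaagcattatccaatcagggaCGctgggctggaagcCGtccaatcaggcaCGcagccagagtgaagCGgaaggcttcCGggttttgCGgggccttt
ZNF681: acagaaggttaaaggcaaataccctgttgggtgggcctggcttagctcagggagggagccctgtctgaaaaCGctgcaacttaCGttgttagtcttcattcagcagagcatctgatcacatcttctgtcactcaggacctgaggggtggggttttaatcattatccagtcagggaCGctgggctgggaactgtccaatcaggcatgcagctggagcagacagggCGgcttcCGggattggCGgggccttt
ZNF772: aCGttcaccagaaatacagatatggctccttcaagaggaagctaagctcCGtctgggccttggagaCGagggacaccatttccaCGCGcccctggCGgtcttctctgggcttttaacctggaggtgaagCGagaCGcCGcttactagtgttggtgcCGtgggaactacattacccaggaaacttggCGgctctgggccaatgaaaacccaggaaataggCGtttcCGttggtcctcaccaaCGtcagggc
ZNF256: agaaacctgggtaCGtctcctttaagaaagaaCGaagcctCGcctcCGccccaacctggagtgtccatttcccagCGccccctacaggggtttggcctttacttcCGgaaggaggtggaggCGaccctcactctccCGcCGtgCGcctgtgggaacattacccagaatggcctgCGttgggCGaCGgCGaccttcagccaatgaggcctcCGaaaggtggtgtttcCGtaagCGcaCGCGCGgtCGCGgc
ZNF737 and ZNF681 were identical at 76.4% of aligned positions and shared an unbroken run of 18 bases, while ZNF772 and ZNF256 were identical at 57.5%. Over 21 genes of the 19p12 run with a listed promoter, the median identity of 210 pairs was 77.8% (49.4% to 92%), and 154 pairs (73.3%) reached 70%. In the run from ZNF772 to ZNF256 the median of 190 pairs was 51.8%, and 1 pair reached 70%. In the 3 runs outside the intervals the medians lay between 50.8% and 53.1%. The 19p12 sequences were also poorer in CG, with a median of 8 CG dinucleotides against 13.5 in the ZNF772 to ZNF256 run and 17 for all protein-coding genes with a listed promoter. Sequencing reads from repeated sequence can match several places, and how such reads were handled is not given in the sources used here. Its part in the peak numbers was not tested.

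Both marks were sparse over 19p12. CTCF had 4.44 peaks per Mb there (95% interval 2.71 to 6.86, 20 peaks in 4.5 Mb) against 29.8 in the rest of the chromosome (28.3 to 31.4), a ratio of 0.149 (exact 95% interval 0.0908 to 0.231). H3K27ac had 5.56 peaks per Mb (3.60 to 8.20, 25 peaks) against 61.6 (59.4 to 63.8), a ratio of 0.0902 (0.0583 to 0.133). Acetylated peaks covered 3.78 kb per Mb in 19p12 and 54.9 kb per Mb in the rest. The interval makes up 7.61% of the chromosome as far as its last peak, and held 1.28% of its CTCF and 0.774% of its H3K27ac peaks.

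The 19q13.4 interval lay between 19p12 and the rest. CTCF had 16.8 peaks per Mb (13.8 to 20.3, 111 peaks in 6.6 Mb), 0.564 times the rest (0.461 to 0.684), and H3K27ac 37.9 (33.3 to 42.9, 250 peaks), 0.615 times (0.538 to 0.700). H3K27ac peaks covered 34.4 kb per Mb. There were 2.25 H3K27ac peaks per CTCF peak in 19q13.4 (1.79 to 2.84), 1.25 in 19p12 (0.667 to 2.37) and 2.06 in the rest (1.94 to 2.20), and the intervals of these ratios overlap. Stricter thresholds changed this order: among peaks with a −log10 q of at least 10 the numbers were 1.85 in 19q13.4, 1.80 in 19p12 and 1.03 in the rest. The longest stretch of the chromosome without a peak of either list, 3794 kb from chr19:24342847, runs from inside 19p12 past its upper bound. Without it the density of the rest rose to 32.3 per Mb for CTCF and 66.6 per Mb for H3K27ac, and all 4 ratios were lower.

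The 19p12 interval was thin along its whole length. Its 9 windows of 0.5 Mb held 1 to 5 CTCF peaks each (median 2) and 0 to 6 H3K27ac peaks (median 2). The windows at 20 to 20.5 Mb and 22.5 to 23 Mb held 0 H3K27ac peaks, and the most of both marks were at 24 to 24.5 Mb, with 5 CTCF and 6 H3K27ac peaks. In the rest the median window held 16 CTCF and 27.5 H3K27ac peaks, and 19 of 96 windows (19.8%) had 5 CTCF peaks or fewer. For H3K27ac 17 of 96 windows (17.7%) had 5 peaks or fewer, and 13 windows had 0. Of the 19 windows with few CTCF peaks, 10 held a peak and 9 held no peak of either list. The empty windows ran from 24.5 to 28 Mb, in the long peak-free stretch that starts inside 19p12, and from 31.5 to 32.5 Mb. Whether peaks could be called in that stretch was not tested. Thin windows with peaks thus occurred elsewhere on the chromosome, but none of the 19p12 windows reached the median of the rest for either mark.

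**Figure D1:**
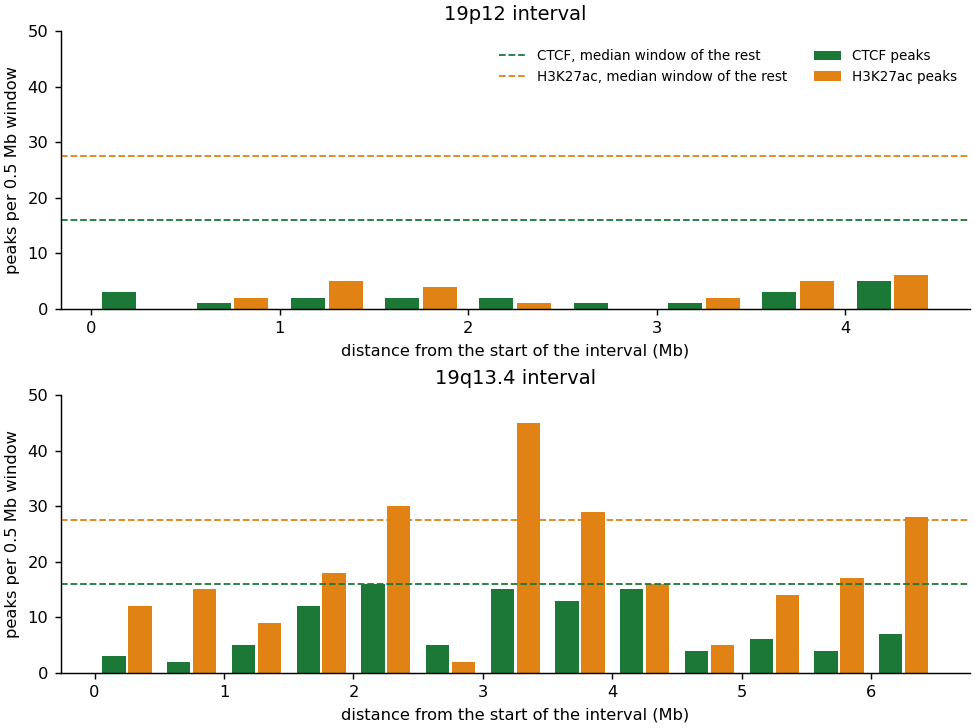
Number of CTCF (green) and H3K27ac (orange) peaks in each full 0.5 Mb window, plotted by distance from the start of the 19p12 interval (top) and the 19q13.4 interval (bottom). Dashed lines are the median window of the rest of chromosome 19, 16 CTCF and 27.5 H3K27ac peaks; all bars of the top panel stay at 6 or below.

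The 19q13.4 interval was uneven. Its 13 full windows held 2 to 16 CTCF peaks (median 6) and 2 to 45 H3K27ac peaks (median 16). The windows with most CTCF peaks were at 54.5 to 55 Mb (16), 55.5 to 56 Mb (15) and 56.5 to 57 Mb (15), and those with most H3K27ac peaks at 55.5 to 56 Mb (45), 54.5 to 55 Mb (30) and 56 to 56.5 Mb (29). Between them, the window at 55 to 55.5 Mb held 5 CTCF and only 2 H3K27ac peaks, the lowest H3K27ac number of the interval. The fewest CTCF peaks were at 53 to 53.5 Mb (2), where 15 H3K27ac peaks lay.

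The middle of the interval, from 54 to 57 Mb, a stretch chosen after its values were seen, had 25.3 CTCF peaks per Mb (20 to 31.7), 0.849 times the rest (0.665 to 1.07). Its flanks had 9.72 (6.77 to 13.5), 0.326 times the rest (0.226 to 0.456). H3K27ac varied less, with 46.7 peaks per Mb in the middle and 30.6 in the flanks, 0.758 and 0.496 times the rest. Median CTCF fold was 12.7 in the middle and 6.94 in the flanks, while median H3K27ac fold was 6.66 and 8.93.

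**Figure D2:**
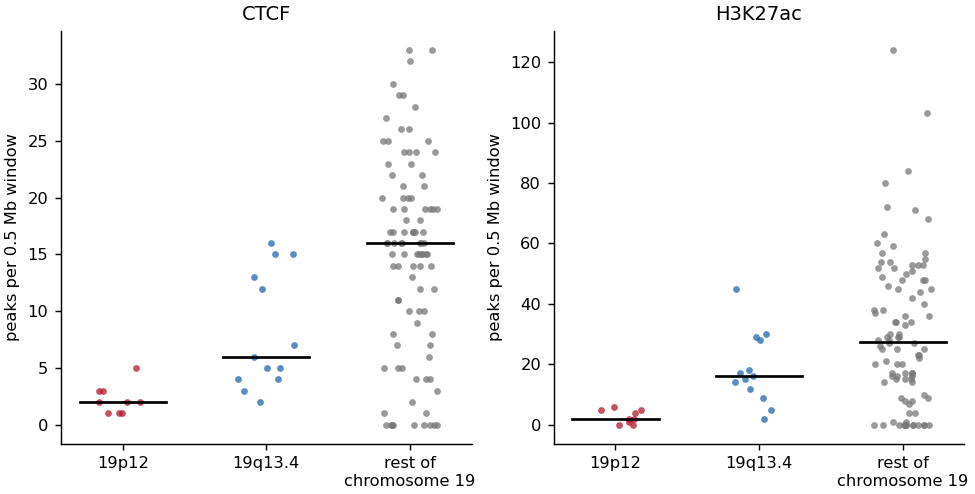
Peaks per full 0.5 Mb window for CTCF (left) and H3K27ac (right), 1 point per window (9 in 19p12, 13 in 19q13.4, 96 in the rest), with the median as a line. The 19p12 windows lie at 5 CTCF and 6 H3K27ac peaks or below, and the 19q13.4 windows spread from 2 up to 16 CTCF and 45 H3K27ac peaks.

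Over all peaks, median fold in 19p12 was below the rest for CTCF and above it for H3K27ac. Fold enrichment is the authors' own ratio, a peak's summit over the background around it, and is read here within each list alone. Which input library gave the background of either list is not stated in the labels. CTCF peaks of 19p12 were weak, with folds from 3.75 to 12.9 and a median of 6.47 (4.89 to 9.19), against 11.5 (11.0 to 12.1) in the rest and 10.8 (9.36 to 12.6) in 19q13.4. Only 4 of the 20 reached 9.52, the median of the whole CTCF list. In 19q13.4 56.8% of CTCF peaks did, and the interval of its median overlaps that of the rest. Summits of the 19p12 CTCF peaks held a median of 22.5 fragments (range 12 to 44) against 50 in the rest.

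H3K27ac peaks of the intervals had higher folds than those of the rest. The median was 8.15 in 19p12 (6.14 to 11.0) and 7.66 in 19q13.4 (6.70 to 8.62), against 4.55 (4.55 to 4.76) in the rest. A fold at or above the list median of 4.55 was reached by 76.0% of 19p12 members (Wilson interval 56.6 to 88.5), by 74.0% in 19q13.4 (68.2 to 79.0) and by 51.9% in the rest (50.1 to 53.7). The summits held a median of 37 fragments in 19p12 and 34 in 19q13.4, against 21 in the rest. In 19p12 the order turned once peaks had to reach a −log10 q of 10, with medians of 9.58 there and 10.5 in the rest. The 19q13.4 median was then 10.8.

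Local background also differed between the intervals and the rest. It stood at the lowest, genome-wide level for 85.0% of CTCF members in 19p12 (64.0 to 94.8) and 73.0% in 19q13.4 (64.0 to 80.4), against 40.9% in the rest. For H3K27ac the shares were 64.0%, 74.4% and 47.4%. In neither list did these shares follow the order of the median folds. A lower background raises a fold for the same number of fragments. Its part in the folds and peak numbers was not tested. The fragment numbers had the same order as the folds, but they were solved from the folds and p-values and are not independent of them.

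The H3K27ac density ratio of 19q13.4 depended on which peaks were counted. Among peaks with a −log10 q of 10 or more, 19q13.4 held 25 H3K27ac peaks per Mb and the rest 25.1, a ratio of 0.995 (0.841 to 1.17). Among peaks at or above the list median of fold the ratio was 0.877 (0.749 to 1.02). For CTCF in 19q13.4 the same thresholds gave 0.551 (0.439 to 0.683) and 0.531 (0.405 to 0.686), next to 0.564 for all peaks. With peaks within 1 kb joined, the H3K27ac ratio in 19q13.4 was 0.728 (0.620 to 0.852). Peaks over 1 kb made up 28.4% of the H3K27ac peaks in 19q13.4 and 26.8% of those in the rest. In 19p12 the ratio stayed low for both marks: with a −log10 q of 10 or more it was 0.0907 for CTCF (0.0434 to 0.167) and 0.159 for H3K27ac (0.0941 to 0.253). The thresholds were applied to both lists, and the difference between marks was not tested.

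**Figure D3:**
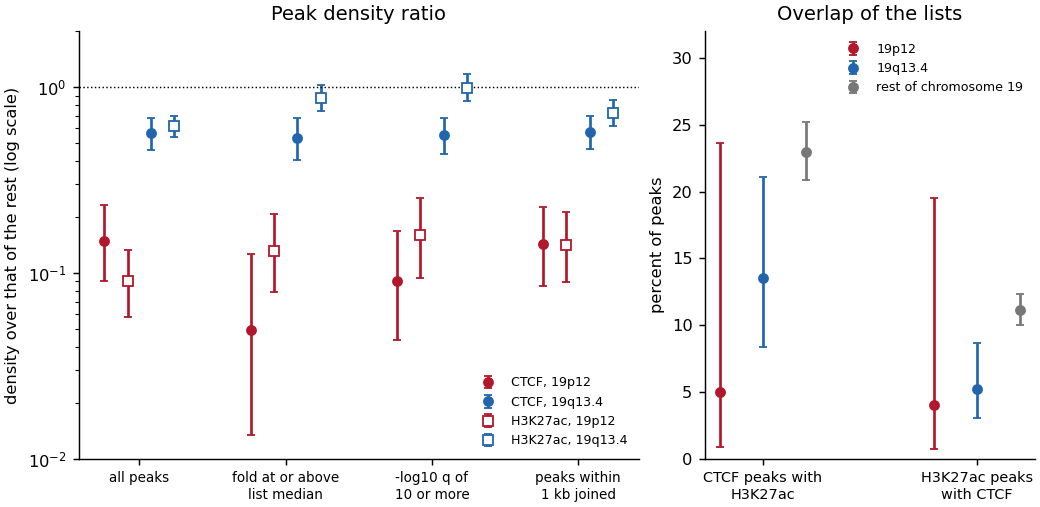
Left, peak density of each interval over that of the rest of chromosome 19 (log axis; bars are exact 95% intervals) for 4 ways to count peaks: the H3K27ac ratio in 19q13.4 is 0.615 for all peaks and 0.995 with a −log10 q of 10 or more, while the CTCF ratio there stays between 0.531 and 0.571. Right, percent of peaks that overlap a peak of the other list, with Wilson 95% intervals, highest in the rest for both lists.

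The acetylated peaks of 19p12 were of similar, moderate width. Their median width was 746 bases (511 to 800) with quartiles of 466 and 808, 15 of 25 measured 500 to 1000 bases, and the widest had 1184. In the rest the median was 584 bases (561 to 603), the quartiles 380 and 1051 and the widest peak 10764 bases, and 237 peaks (8.01%) exceeded 2 kb. In 19p12 0 of 25 exceeded 2 kb, which allows a share of up to 12% (3 counts of 25), and 19 of 250 (7.60%) did in 19q13.4, where the median was 658 bases (601 to 711). The order of the medians depended on how peaks were counted. With peaks within 1 kb joined, the median was 756 bases in 19p12 and 879 in 19q13.4, both below the 1068 bases of the rest. CTCF members were narrower than the rest, with medians of 234 bases in 19p12 (184 to 263) and 275 in 19q13.4 (258 to 291) against 308 (303 to 314). The smallest widths in the lists, 154 bases for CTCF and 288 for H3K27ac, bound these values from below.

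**Figure D4:**
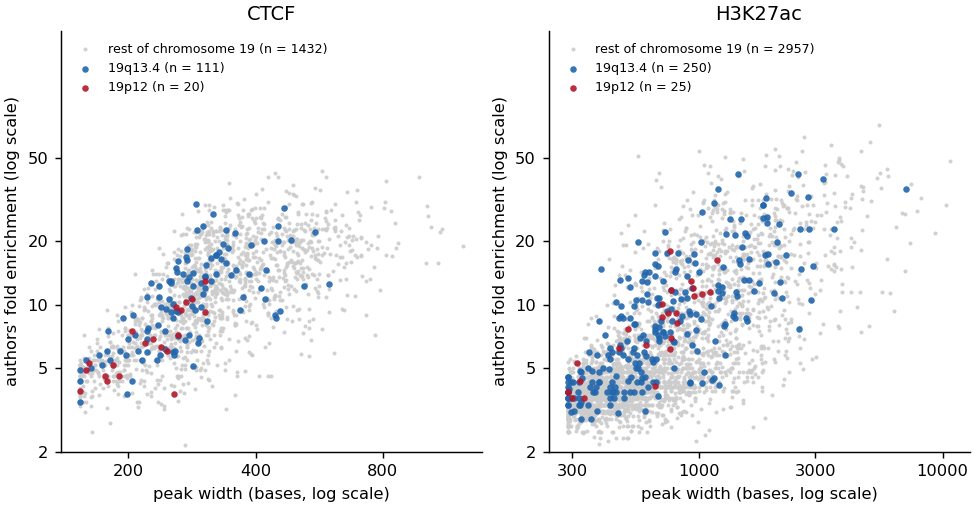
Width (bases, log axis) and the authors' fold enrichment (log axis) of each CTCF (left) and H3K27ac (right) peak of chromosome 19. The 20 CTCF peaks of 19p12 sit at 304 bases and fold 12.9 or below; 15 of its 25 H3K27ac peaks sit between 500 and 1000 bases.

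The 3 H3K27ac peaks of highest fold in 19p12 each stood alone, with 12.3, 120 and 60.7 kb to the nearest other H3K27ac peak. The highest H3K27ac fold, 18.1 from 78 fragments (exact Poisson 95% interval 61.7 to 97.3), was at chr19:24269927-24270686. The next were 16.4 at chr19:23577124-23578307, also the widest, and 12.9 at chr19:21203398-21204318. The first of these ranked 328th among the H3K27ac peaks of the chromosome. The other wide peaks were chr19:24216202-24217306 with 1105 bases and chr19:24237169-24238191 with 1023. For CTCF the highest folds were 12.9 at chr19:21385724-21386026 from 44 fragments (32 to 59.1), 10.6 at chr19:21666721-21667003 and 10.3 at chr19:22728626-22728899. None of these CTCF peaks overlapped H3K27ac, and the first ranked 655th among the CTCF peaks of the chromosome.

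In 19q13.4 the highest folds were above those of 19p12 and below the maxima of the rest, 43.3 for CTCF and 71.6 for H3K27ac. The highest CTCF fold, 30.1 from 131 fragments (109.5 to 155), at chr19:56165031-56165320, was 30th on the chromosome. It lay inside the H3K27ac peak chr19:56164489-56167714, which had a fold of 39.5 and a width of 3226 bases. The next CTCF peaks, chr19:54296188-54296654 with 28.9 and chr19:55671917-55672233 with 26.9, were without H3K27ac. For H3K27ac a fold of 41.7 was shared by chr19:54641360-54643913 and chr19:55918189-55919629. The widest acetylated peak, 7048 bases at chr19:59064787-59071834, had a fold of 35.4 and lay near the end of the interval. It was followed by chr19:54959245-54962832 with 3588 bases.

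Peaks in 19p12 stood far apart. Gaps lengthen as peaks per Mb fall, so these values are not independent of the densities above. The median gap between neighbouring CTCF peaks was 172 kb (28.6 to 377, 19 gaps) against 15.4 kb (13.8 to 16.7) in the rest, and 12 of the 19 gaps exceeded 100 kb, 63.2% against 4.76%. The longest, chr19:22728900-23466856, spanned 738 kb, followed by 632 kb from chr19:20108800 and 449.8 kb from chr19:20741096. Close pairs also occurred, with 0.345 kb between neighbours near chr19:23623310 and 0.809 kb near chr19:21665912. H3K27ac gaps had a median of 83.9 kb (19.1 to 151, 24 gaps) against 1.85 kb (1.65 to 2.08). The longest of them, 1143 kb at chr19:22289533-23432295, held 2 CTCF peaks.

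Acetylated peaks of 19p12 were mostly alone. Their density was 5.56 peaks per Mb, against 37.9 in 19q13.4 and 61.6 in the rest. A lower density leaves more peaks alone, and its part in the shares below was not tested. Of 25, 17 (68.0%, Wilson 48.4 to 82.8) had no other H3K27ac peak within 10 kb, against 30.8% in 19q13.4 (25.4 to 36.8) and 9.87% in the rest (8.85 to 11.0). Grouped by gaps of up to 10 kb, the 25 peaks formed 21 groups with 2 peaks at most, while 64.1% of the peaks of the rest belonged to groups of 5 or more. In 19q13.4 34.8% of the peaks did, in 10 groups, of which the largest had 21.

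Gaps in 19q13.4 had short and long classes. The median H3K27ac gap was 8.76 kb (4.17 to 14.7) and the median CTCF gap 28.3 kb (23.0 to 34.0). Of the H3K27ac gaps 30.5% were under 1 kb, against 41.3% in the rest, and 38.6% (32.7 to 44.7) measured 10 to 50 kb, against 19.4% (18.0 to 20.9). The limits of this class were chosen after the gaps were seen. For CTCF the shares of 10 to 50 kb were 46.4% (37.3 to 55.6) and 44.6% (42.1 to 47.2), with overlapping intervals. The longest gaps were 449.9 kb without CTCF at chr19:53238593-53688487, which held 11 H3K27ac peaks, and 595 kb without H3K27ac at chr19:57106997-57702428, which held 8 CTCF peaks. The closest CTCF neighbours, 0.114 kb apart, lay near chr19:59030623.

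**Figure D5:**
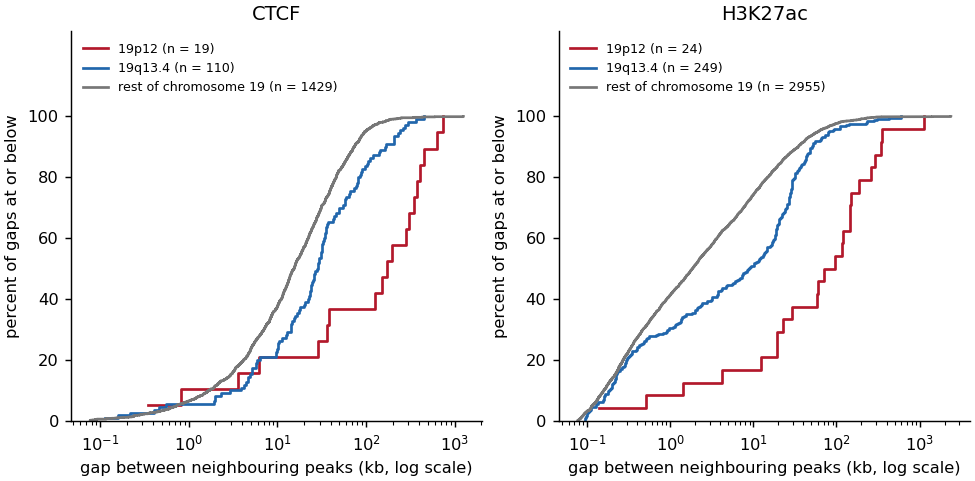
Percent of gaps between neighbouring peaks at or below each length (kb, log axis), for CTCF (left) and H3K27ac (right), in 19p12, 19q13.4 and the rest of chromosome 19. Median H3K27ac gaps are 83.9, 8.76 and 1.85 kb; the 19q13.4 curve climbs steeply between 10 and 50 kb, where 38.6% of its gaps lie.

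The share of peaks that overlapped the other mark was lower in both intervals than in the rest. In 19p12 1 of 20 CTCF peaks overlapped H3K27ac by at least 1 base, 5.00% (Wilson 0.888 to 23.6), in 19q13.4 15 of 111, 13.5% (8.36 to 21.1), and in the rest 329 of 1432, 23.0% (20.9 to 25.2). In the other direction 1 of 25 (4%, 0.710 to 19.5), 13 of 250 (5.20%, 3.06 to 8.69) and 329 of 2957 (11.1%, 10.0 to 12.3) H3K27ac peaks overlapped CTCF. The 19p12 shares rest on 20 CTCF and 25 H3K27ac peaks, and both Wilson intervals include the share of the rest. With the summit inside, the CTCF share of 19q13.4 was 9.91% (5.62 to 16.9, rest 14.2%). Within 1 kb it was 25.2% (18.1 to 34.0, rest 31.4%). At a −log10 q of 10 or more it was 10.1% (5.41 to 18.1, rest 16.6%). These intervals include the share of the rest. With folds at or above the list median it was 4.76% (1.63 to 13.1, rest 19.2%). The H3K27ac share of 19q13.4 was 0.4% (0.0706 to 2.23, rest 2.71%) with its summit inside a CTCF peak. Within 1 kb it was 12.4% (8.87 to 17.1, rest 19.6%). At a −log10 q of 10 or more it was 4.24% (2.07 to 8.50, rest 15.7%). With folds at or above the list median it was 1.62% (0.553 to 4.66, rest 11.0%). These H3K27ac intervals lie below the share of the rest. In the middle of 19q13.4, from 54 to 57 Mb, 7 of 76 CTCF peaks (9.21%) overlapped H3K27ac. In its flanks 8 of 35 (22.9%) did, next to 23.0% in the rest. These stretches were chosen after their values were seen, the numbers are small, and the difference was not tested. Of the 15 overlapping CTCF peaks, 4 lay in the last 0.1 Mb, which belongs to the flanks, and 3 of these in 1 acetylated peak. Without the outermost 0.5 Mb on each side the 19q13.4 share was 8.25%. The density of H3K27ac, 46.7 peaks per Mb in the middle, 30.6 in the flanks and 61.6 in the rest, also differed between these stretches, and its part in the shares was not tested.

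The single overlap of 19p12 was between a weak CTCF peak, chr19:24216436-24216691 with a fold of 3.75 from 12 fragments (6.20 to 21.0), and the acetylated peak chr19:24216202-24217306, which contained it. In 19q13.4 the CTCF peaks with H3K27ac and the highest folds were chr19:56165031-56165320, chr19:59025266-59025600 (fold 19.5) and chr19:52642481-52642830 (fold 13.9). At chr19:59029512-59031782, 3 CTCF peaks lay in 1 acetylated peak of 2271 bases, with folds of 11.2, 9.36 and 6.76. Of the 15 overlapping CTCF peaks, 11 had their summit inside the acetylated peak. The 15 had a median fold of 9.36 against 10.9 for the 96 others, while the 13 acetylated peaks with CTCF had 14.4 against 7.42 for the 237 without. In the rest the acetylated peaks with CTCF also had the higher median fold, 8.62 against 4.36. The 13 peaks were wider, with a median of 1524 bases against 657, and the part of width in this difference was not tested.

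CTCF summits of 19p12 lay far from acetylation, in an interval with 5.56 H3K27ac peaks per Mb against 61.6 in the rest. Distances lengthen as H3K27ac peaks become fewer, and the part of density was not tested. The median distance from a summit to the nearest H3K27ac peak was 56.4 kb (36.6 to 131) in 19p12, 12.3 kb (7.30 to 17.9) in 19q13.4 and 5.75 kb (4.80 to 6.61) in the rest. Within 10 kb of an H3K27ac peak lay 2 of 20 summits in 19p12 (10.0%, Wilson 2.79 to 30.1), 53 of 111 in 19q13.4 (47.7%, 38.7 to 57.0) and 867 of 1432 in the rest (60.5%, 58.0 to 63.0). Within 1 kb the shares were 5.00%, 24.3% (17.3 to 33.1) and 30.6% (28.3 to 33.0).

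H3K27ac peaks lay closer to the bounds of 19q13.4 than to those of 19p12. CTCF peaks lay at least 41.4 kb from the lower bound of either interval. At the lower bound of 19p12 the nearest H3K27ac peaks lay 608 kb inside and 112 kb outside. The first CTCF peak inside 19p12 lay 41.4 kb from its lower bound with a fold of 9.48, and the nearest outside lay 201 kb away with a fold of 4.04. At the upper bound the last members were 157 kb (CTCF, fold 6.04) and 229.7 kb (H3K27ac, fold 18.1) inside, and the next peaks outside were 3636 kb and 3785 kb away. At the lower bound of 19q13.4 the nearest H3K27ac peaks lay 11.6 kb inside with a fold of 9 and 69.4 kb outside with a fold of 9.82. The nearest CTCF peaks there lay 143 kb inside (fold 13.9) and 69.8 kb outside (fold 7.76). At its upper bound the last H3K27ac member lay 13.2 kb inside (fold 12.7), and the nearest CTCF peaks 68.5 kb inside (fold 6.76) and 17.9 kb outside (fold 19.3). The last 0.1 Mb of the interval held 4 CTCF and 10 H3K27ac peaks.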

How the data were processed

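CTCF and H3K27ac chromatin immunoprecipitation libraries of DU145, 1 each, were analysed from their peak lists. The submitters' processing notes name Bowtie, MACS2 and the build hg19, with no version or setting given in the sources used here. Besides its position and summit, every peak in the deposited lists carries a score, a fold enrichment (linear ratio), a −log10 p-value and a −log10 q-value, all as the authors made them. Scores were not used. The fold and −log10 p were solved for a whole number of fragments at the summit and its local background, which succeeded for 99.9945% of CTCF and 100% of H3K27ac peaks (tolerance 0.002); the most frequent background was taken as the genome-wide level. The median summit held 45 CTCF and 23 H3K27ac fragments. Depth of the libraries is otherwise unknown.

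Members were peaks with their midpoint in the 2 intervals. The rest of chromosome 19 ended at its last peak. Overlap needed 1 shared base. Densities carry exact Poisson intervals, ratios exact conditional intervals, shares Wilson intervals and medians order-statistic intervals, all at 95%. Peaks named were the 3 of highest fold per list and interval, the widest, the longest gaps and closest pairs, and windows with most or fewest peaks. Upstream sequences were aligned globally with Biopython 1.88, and identity is over alignment length. Computation used Python 3.11.15, pandas 2.3.3 and scipy 1.17.1. Functions were tested on simulated data. Alternatives were stricter peak thresholds, other overlap rules, joined peaks, trimmed intervals and a shorter rest. The members and lists were chosen with earlier results of these data known.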

Additional observations from a re-analysis of the deposited data

How the results depend on the processing

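Each value was recomputed for both intervals together. Of 49 alternative values, 25 kept their order against the rest and stayed within the 95% interval of the reported one. For each interval alone 56 of 98 alternative values did so, 33 moved out of that interval, and 9 turned their order. No alternative turned the order of density, gap, CTCF fold, overlap or distance against the rest in both intervals together. Of the 275 H3K27ac peaks counted together, 250 came from 19q13.4. At a −log10 q of 10 or more the H3K27ac density ratio was 0.159 in 19p12 and 0.995 (0.841 to 1.17) in 19q13.4. No paired analysis was possible because each antibody has 1 library. The median H3K27ac width of 664 bases exceeded the 584 bases of the rest, but this order turned with a −log10 q of 10 or more (817 against 1110), with folds at or above the list median (770.5 against 951) and with peaks within 1 kb joined (800 against 1068). For single intervals these settings gave 767, 765 and 756 bases in 19p12 and 849, 777 and 879 in 19q13.4, also below the rest. The number of H3K27ac peaks per CTCF peak, 2.10 against 2.06, turned to 2.02 without the outermost 0.5 Mb of each interval; it was 3.04 (rest 1.78) with folds at or above the list median, 1.60 (1.298) with peaks joined and 1.85 (1.03) with a −log10 q of at least 10. In 19p12, where it was 1.25, it turned to 1.80 with a −log10 q of 10 or more and 4.75 with folds at or above the list median, above the rest. At a −log10 q of at least 10, median H3K27ac fold in 19p12 turned to 9.58 against 10.5. The cause of these turns was not tested.

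At a −log10 q of at least 10, the H3K27ac density ratio was 0.656 in place of 0.402, the CTCF width 285 bases (rest 330), the CTCF fold 12.3 (13.3), the H3K27ac fold 10.8 (10.5) and the H3K27ac gap 22.7 kb (12.6), so the gap differed less from the rest than the reported 12.1 against 1.85 kb. With folds at or above the list median, these were 0.575, 303 bases (366), 14.1 (16), 10.1 (8.27) and 19 kb (7.785), and the overlaps fell to 4.48% of CTCF (19.2) and 1.47% of H3K27ac peaks (11.0), from 12.2% and 5.09%. With peaks joined, the H3K27ac density ratio was 0.490 and the gap 22.3 kb (8.00). Overlap of CTCF peaks was 7.34% (23.0) without the outermost 0.5 Mb and 22.1% (31.4) within 1 kb; that of H3K27ac peaks was 0.364% (2.71) with the summit inside and 11.6% (19.6) within 1 kb. Stricter lists hold fewer and stronger peaks by construction. The 20 CTCF and 25 H3K27ac peaks of 19p12 limit its shares.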
